A study of Mus musculus with 36 samples.

Results

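The 9 genes described here encode the 3 TGF-β ligands (Tgfb1, Tgfb2 and Tgfb3), their 3 receptors (Tgfbr1, Tgfbr2 and Tgfbr3), 2 feedback inhibitors of the pathway (Smad7 and Skil) and Ltbp2, a matrix glycoprotein of the latent TGF-β binding family. They were chosen by gene symbol, with earlier results of these data known. Each of the 9 was found once among the 39017 genes of the count table and was among the 14439 genes tested. The libraries were RNA-seq libraries of C57BL/6 mouse pancreatic fibroblasts, 36 in all, in 9 groups of 4. In the group called mono-culture the fibroblasts had been grown without tumour cells. In the other 8 they had been grown in direct contact with a tumour line for 48 h after which the tumour cells, which carried GFP, were removed by flow sorting. These lines were the sub-clones E, H, K, M, N, T and V, each a single clone, and KPC1, a name that the labels do not explain. The labels give no further genotype or age, do not say whether mono-culture fibroblasts were also sorted, and do not say whether the 4 libraries of a group came from separate cultures, so that p-values measure the spread between these libraries, which may be technical.

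TGF-β is secreted bound to a latency peptide, which latent TGF-β binding proteins tether to the extracellular matrix, and it must be freed before it can signal. The active ligand binds the type II receptor, which recruits and phosphorylates the type I receptor, and this complex phosphorylates SMAD proteins that move to the nucleus and change transcription. Among the genes that respond are inhibitors of the pathway itself, and in fibroblasts TGF-β is known for driving matrix production and the contractile myofibroblast state.

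Library totals ranged from 12532122 to 21985538 counts, and no member had fewer than 230 counts in any library. The fibroblast markers Pdgfra and Pdgfrb were present in every library, at 40.6 CPM or more and 397 CPM or more (CPM, counts relative to the library total, scaled between libraries by TMM). The defining leukocyte marker Ptprc reached at most 3 counts and the defining endothelial markers Cdh5 and Pecam1 at most 2 and 30. The 6 leukocyte genes listed, 4 of them tested, summed to 13.7 to 16.4 CPM in mono-culture against 20.2 to 33.3 CPM with clone T, the group with the highest mean, in which Cd68 averaged 12.98 CPM against 3.37 CPM in mono-culture, while Lyz2 averaged 0.152 CPM there against 3.32 CPM in mono-culture. The 4 endothelial genes, 3 of them tested, summed to 1.75 to 3.08 CPM in mono-culture against 2.17 to 6.33 CPM with KPC1, the group with the highest mean. Their part in the results below was not tested. Among the epithelial markers, the keratins Krt8, Krt18 and Krt19 made up most of the rise seen with co-culture. Group means of Krt18 rose from 0.161 CPM without tumour cells to between 54.2 (clone V) and 281 CPM (clone T). Krt7 did not follow, with a mono-culture mean of 0.372 CPM and co-culture means from 0.250 (KPC1) to 0.967 CPM (clone M). Muc1 means stayed between 2.28 (mono-culture) and 4.95 CPM (clone N). Cldn7 and Epcam had their highest means in mono-culture, at 0.281 and 0.176 CPM. Of the 10 epithelial genes listed 6 were tested, and their summed level (all 10) was 2.74 to 4.18 CPM in mono-culture and ranged from 20.5 CPM (clone K replicate 2) to 799 CPM (clone T replicate 1) in co-culture, although Epcam never exceeded 9 counts and was at 0 in 24 of 36 libraries. Cdh1 averaged 0.258 CPM in mono-culture, 30.9 CPM with KPC1 and 0.0304 CPM with clone M. The share of any member's reads that came from tumour cells was not tested. In the co-culture library with the lowest epithelial sum, Tgfb2 was at 83.5 CPM, Tgfbr2 at 190 CPM and Tgfbr3 at 92.5 CPM. In the library with the highest sum these genes were at 77.3, 130 and 81.7 CPM. Their mono-culture ranges were 13.3 to 18.97, 258 to 338 and 75.1 to 96.4 CPM. The other members, lowest sum first, were at 105 and 149 CPM (Tgfb1), 129 and 106 (Tgfb3) and 59.1 and 88.2 (Tgfbr1). Smad7 was at 66.8 and 57.7 CPM, Skil at 68.5 and 122 and Ltbp2 at 277 and 145. These 2 libraries are from different lines, so marker level and line cannot be told apart here.

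**Figure D1:**
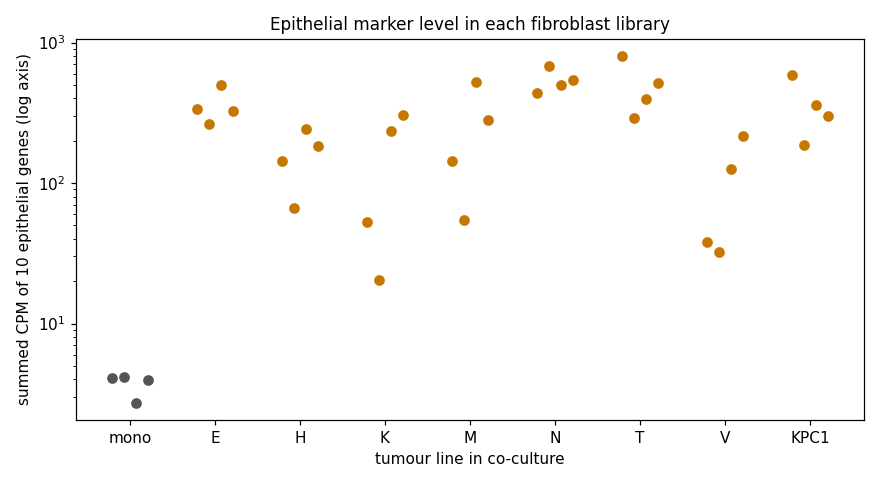
Summed CPM of 10 epithelial genes in each fibroblast library (points, log axis) by the tumour line in co-culture. The 4 mono-culture libraries lie between 2.74 and 4.18 CPM and the co-culture libraries between 20.5 and 799 CPM.

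To ask how these genes differed after co-culture with each tumour line, each co-culture was compared with mono-culture. In the sample titles the co-cultures are numbered replicate by replicate, and the mono-culture libraries follow all of them. The labels do not say what this order stands for. Any effect that goes with it cannot be told apart from that of co-culture. All 3 ligands, Tgfbr1 and Smad7 rose with all 8 lines, Tgfbr2 fell with all 8, and Tgfbr3, Skil and Ltbp2 moved with some lines and not with others (edgeR quasi-likelihood test, Benjamini-Hochberg adjusted over all genes tested, threshold 0.05). Tgfb2 had the largest increases of the 9 genes with every line, from 4.09-fold with clone M to 6.89-fold with clone N. Tgfbr2 had the largest decrease, 3.20-fold with KPC1. The 8 comparisons share the mono-culture libraries and are not independent of each other. In bulk libraries a change in the level of a gene per cell cannot be told apart from a change in the share of cells that express it.

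The counts of members are given here beside the share of all tested genes that were called in the same direction. Because the members were chosen with earlier results of these data known, an excess over that share is a description and not a test. With clone E, 7 members were higher and 1 lower, against 16.5% and 15.5% of all genes tested. With clone H, 7 were higher and 2 lower, against 27.8% and 26.4%. In co-culture with clone K the backgrounds were smallest, 10.4% higher and 8.69% lower, and 7 members were higher and 1 lower. Clone M gave 6 higher and 1 lower against 12.2% and 10.8%, and clone N gave 7 and 1 against 19.7% and 19.2%. With clone T, 7 were higher and 1 lower against 25% and 24.7%. Clone V and KPC1 each gave 6 higher and 2 lower, against 29.4% and 28.9% for clone V and 30.5% and 28.5% for KPC1. The median log2 fold change of the 9 members lay between 0.51 (clone V) and 1.28 (clone N), while the median over all genes tested lay between -0.01 and 0.01 for the 8 lines. TMM scaling holds the median over all genes near 0. With no scaling beyond library size it lay between -0.083 (clone V) and -0.021 (clone M). An F-test among the 8 co-cultures alone called 8 of the 9 members, Smad7 being the exception, against 72.0% of all genes tested, so that differing among lines was common in these libraries.

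**Figure D2:**
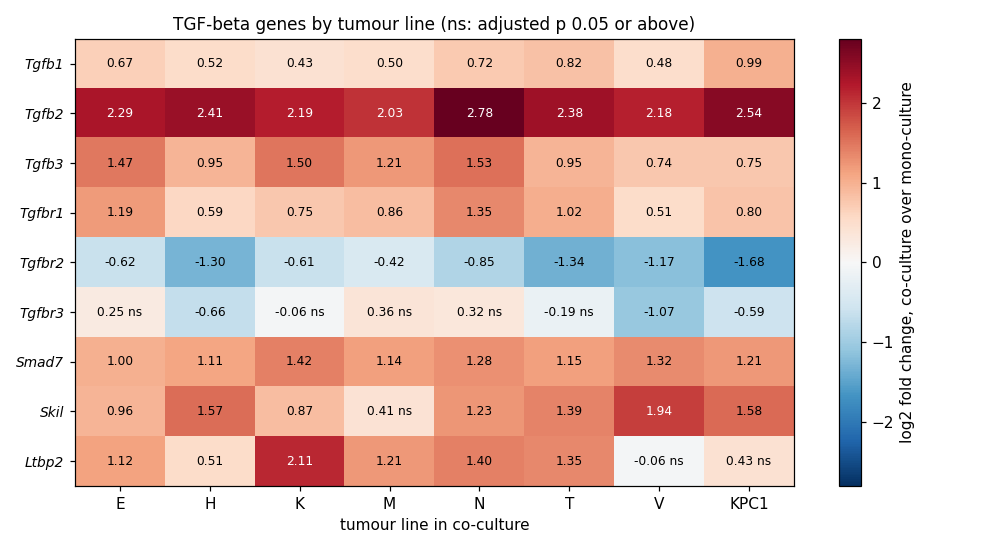
Log2 fold change of each co-culture over mono-culture (colour and printed value) for the 9 genes (rows) and 8 tumour lines (columns), with ns where the edgeR adjusted p was 0.05 or above. The row of Tgfb2 is the highest, from 2.03 to 2.78, and the row of Tgfbr2 is below 0 throughout, from -0.42 to -1.68.

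The upstream sequences of Tgfb2 and Tgfbr2 are shown because these genes moved in opposite directions with all 8 lines. Each is the 250 bases before the RefSeq transcription start in GRCm38.p6, read 5′ to 3′ on the minus strand that carries the gene, at chr1:186705990-186706239 for Tgfb2 and chr9:116175364-116175613 for Tgfbr2. Capitals mark the letters CAGAC or its reverse complement GTCTG (the core of the SMAD binding element), CCAAT or its reverse complement ATTGG, and TATAAA on the gene's strand only.
Tgfb2: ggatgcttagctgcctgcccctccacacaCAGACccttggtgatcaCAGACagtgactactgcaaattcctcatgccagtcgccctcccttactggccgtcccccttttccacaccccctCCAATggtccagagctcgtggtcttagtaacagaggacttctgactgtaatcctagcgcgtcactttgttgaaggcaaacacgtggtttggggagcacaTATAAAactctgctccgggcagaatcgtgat
Tgfbr2: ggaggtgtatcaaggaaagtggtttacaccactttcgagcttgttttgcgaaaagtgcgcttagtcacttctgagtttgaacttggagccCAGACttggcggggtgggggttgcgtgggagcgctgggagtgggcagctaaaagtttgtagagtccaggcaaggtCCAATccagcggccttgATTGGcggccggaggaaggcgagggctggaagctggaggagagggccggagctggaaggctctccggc
The Tgfb2 sequence held CAGAC at 2 positions, CCAAT at 1 and TATAAA at 1. In Tgfbr2, CAGAC occurred at 1 position, the CCAAT letters at 2, once on each strand, and TATAAA at none. Over the 32851 RefSeq promoter windows of the same length, 42.2% held the CAGAC letters on either strand, 33.8% held CCAAT on either strand and 7.59% held TATAAA. RefSeq promoter sequences were matched for 5 of the 9 members, and the same letters were counted in the other 3 as well. Ltbp2 held 2 of the CAGAC letters, Tgfb1 held none of the motifs, and of the 2 starts given for Tgfbr1 one held 2 CCAAT and the other 1 CAGAC. These are matches of letters and not measured binding sites.

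Tgfb2, on chromosome 1 (mm10, 186622792 to 186705989, minus strand), encodes a ligand that binds the type II receptor weakly unless Tgfbr3 presents it. In mono-culture it was at 13.3, 18.97, 17.5 and 17.2 CPM. All 32 co-culture libraries were above these values. With clone N, the line with the highest mean, the libraries were at 107, 108, 138 and 108 CPM. KPC1 co-cultures spread widely, at 107, 85.6, 127 and 69.9 CPM. The clone H libraries were at 90.0, 93.8, 108 and 63.2 CPM, and those of clone T at 77.3, 85.5, 117 and 68.4 CPM. Both of these groups overlap that of KPC1. Clone E gave 81.0, 88.0, 95.1 and 61.9 CPM and clone K gave 68.9, 83.5, 94.0 and 59.2 CPM. In clone V co-culture the libraries were at 48.4, 85.4, 94.9 and 74.8 CPM, the first of them being the lowest of all 32. Clone M had the lowest mean, with libraries at 65.7, 81.9, 58.9 and 67.3 CPM.

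The log2 fold change of Tgfb2 was 2.78 with clone N (SE 0.217, edgeR adjusted p = 7.95e-11) and 2.03 with clone M (SE 0.213, adjusted p = 2.54e-08), and each of the 8 comparisons was called. In the order of group means, from clone N (115 ± 14.87 CPM) down to clone M (68.5 ± 9.69 CPM; SD, n = 4 each), every pair of neighbouring co-cultures had overlapping ranges and differed by less than the larger of their SDs. The ranges of clone M and mono-culture (16.7 ± 2.44 CPM; SD, n = 4) did not overlap, although clone V replicate 1, at 48.4 CPM, lay between them. The F-test among the 8 lines called Tgfb2 (edgeR adjusted p = 0.0292), and this call was lost when single libraries were left out, namely KPC1 replicate 1 (0.0512), clone M replicates 1, 3 and 4 (0.0505, 0.0557 and 0.0582) and clone N replicates 1 and 3 (0.0514 and 0.101). The increase over mono-culture was thus seen with all 8 lines, and a difference in its size between lines rests on few libraries.

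Tgfb1 (chromosome 7, 25687002 to 25705077, plus strand) is the ligand most widely expressed in adult tissues. Its mono-culture libraries were at 81.4, 78.8, 74.6 and 70.7 CPM, and all 32 co-culture libraries were above them, the lowest at 92.1 CPM in clone K replicate 1. The KPC1 libraries were at 184, 136, 142 and 144 CPM. Those of clone K, the co-culture with the lowest mean, were at 92.1, 105, 115 and 99.9 CPM. The changes were the smallest of the 3 ligands with each line except KPC1, where Tgfb3 changed less. The log2 fold change ran from 0.43 with clone K (SE 0.101, edgeR adjusted p = 0.00257) to 0.99 with KPC1 (SE 0.102, adjusted p = 2.11e-09), and the 8 lines differed (F-test, edgeR adjusted p = 6.07e-05). Means fell in the order KPC1 (152 ± 21.8 CPM), clone T (135 ± 11.4), clone N (126 ± 10.8), clone E (121 ± 17.3), clone H (109 ± 7.47), clone M (108 ± 5.76), clone V (107 ± 12.3) and clone K (103 ± 9.44; SD, n = 4 each). Each neighbouring pair in this order overlapped.

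Tgfb3 (chromosome 12, 86056745 to 86079041, minus strand), a ligand known for its part in palate and lung development, was at 50.5, 45.5, 53.5 and 49.3 CPM in mono-culture. Of the 32 co-culture libraries 31 were above this range, and clone V replicate 1, at 46.2 CPM, was inside it. The highest means were with clone N (163, 144, 156 and 112 CPM), clone K (132, 129, 199 and 102 CPM) and clone E (148, 153, 149 and 99.9 CPM). In each of these 3 groups replicate 4 was the lowest library. Clone M was the tightest of the higher groups, at 107, 126, 115 and 113 CPM. KPC1 was at 80.5, 68.5, 106 and 78.7 CPM, and clone V at 46.2, 116, 77.7 and 92.9 CPM. The log2 fold change was 1.53 with clone N (SE 0.200, edgeR adjusted p = 4.80e-07) and 0.74 with clone V (SE 0.198, adjusted p = 0.00185). Among the 8 lines the F-test gave an adjusted p of 0.000516. The ranges of clone M and clone H (96.3 ± 7.71 CPM; SD, n = 4) did not overlap, and all other neighbouring co-cultures overlapped.

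Per length and by group mean, Tgfb1 was the most abundant ligand in every group, Tgfb3 was next and Tgfb2 the lowest. On the RPKM scale (reads scaled to gene length and library total) mono-culture had 36.7 ± 2.21 for Tgfb1, 15.4 ± 1.25 for Tgfb3 and 3.41 ± 0.449 for Tgfb2 (SD, n = 4 each). The summed RPKM of the 3 ligands was 55.5 ± 2.20 in mono-culture and between 86.5 ± 15.97 (clone V) and 123 ± 10.04 (clone N) in co-culture (SD, n = 4 each). Tgfb2 made up 6.18% ± 0.998 of that sum in mono-culture and 13.7% ± 1.47 (clone M) to 18.3% ± 1.65 (clone N) in co-culture (SD, n = 4 each). The highest mono-culture library had 6.94% and the lowest co-culture library 12.2%, so the groups did not overlap. Tgfb1 went from 66.1% ± 2.15 to between 46.2% ± 4.96 (clone K) and 61.6% ± 5.24 (KPC1; SD, n = 4 each). Here the groups did overlap. Clone V replicate 1 (65.4%) and KPC1 replicates 1 and 4 (65.4% and 64.2%) lay inside the mono-culture range of 64.1% to 68.1%. These shares are descriptive and carry no test.

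**Figure D3:**
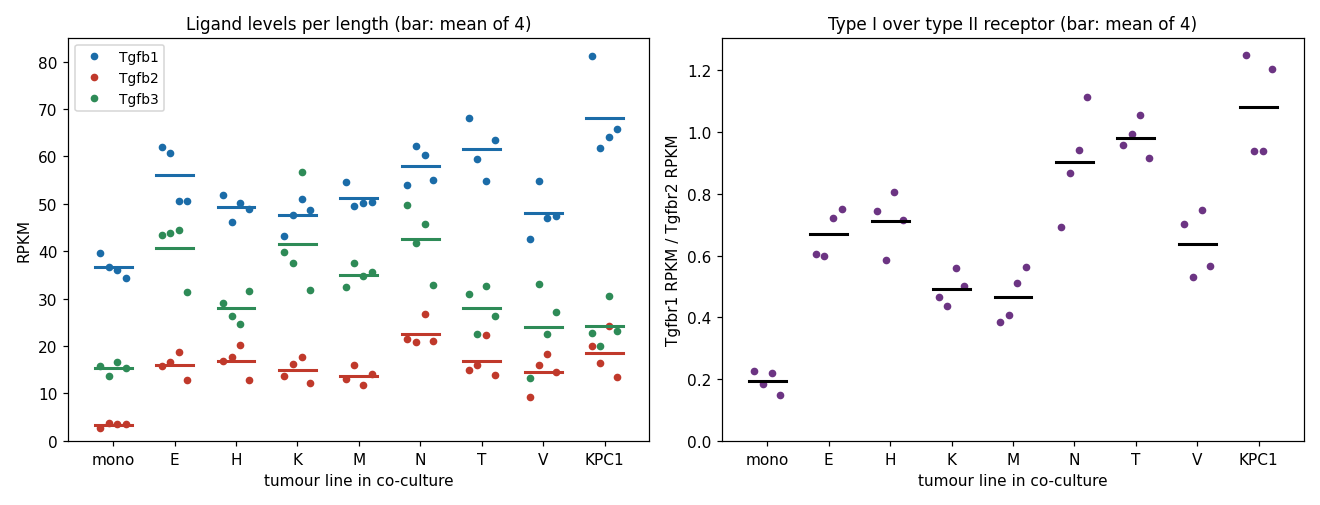
Left, RPKM of Tgfb1, Tgfb2 and Tgfb3 in each library (points) with the mean of 4 (bars), by the tumour line in co-culture; right, the RPKM of Tgfbr1 over that of Tgfbr2 in the same libraries. Tgfb1 has the highest mean in every group, and the receptor ratio rises from a mean of 0.195 in mono-culture to between 0.467 and 1.08 in co-culture.

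The signalling receptors moved in opposite directions. Tgfbr2 (chromosome 9, 116084293 to 116175360, minus strand), the constitutively active type II kinase that binds the ligand, was at 267, 294, 258 and 338 CPM in mono-culture. Every co-culture library was below these 4. With KPC1 the libraries were at 78.7, 88.8, 112 and 82.7 CPM. Those of clone T were at 130, 107, 116 and 106 CPM, and those of clone H at 128, 129, 103 and 111 CPM. Clone V split into a lower pair of libraries, 88.8 and 98.5 CPM, and a higher pair, 173 and 156 CPM. Clone N libraries were at 179, 186, 155 and 121 CPM. With clone E they were at 169, 209, 194 and 183 CPM, and with clone K at 178, 190, 192 and 197 CPM. The smallest decrease was with clone M, whose libraries were at 209, 229, 223 and 205 CPM.

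In the test, Tgfbr2 fell by 1.68 on the log2 scale with KPC1 (SE 0.156, edgeR adjusted p = 3.45e-10), by 1.34 with clone T (adjusted p = 3.71e-08), by 1.30 with clone H (4.17e-08) and by 1.17 with clone V (1.58e-07). Smaller decreases were found with clone N (-0.85, edgeR adjusted p = 4.29e-05), clone E (-0.62, 0.00221) and clone K (-0.61, 0.00390). With clone M the log2 fold change was -0.42 (SE 0.152, adjusted p = 0.0432). That call was lost without any one of the clone M libraries (adjusted p 0.0932, 0.0567, 0.0767 and 0.0881 without replicates 1 to 4), without mono-culture replicate 2 (0.0880) or 4 (0.139), and without the filter on low counts (0.0632). The 8 lines differed from each other (F-test, edgeR adjusted p = 5.91e-08). In the order of means, mono-culture (289 ± 36.1 CPM) was separate from clone M (216 ± 11.7 CPM), and clone M from clone K (189 ± 7.97 CPM; SD, n = 4 each), while neighbours below clone K overlapped down to KPC1 (90.6 ± 14.99 CPM; SD, n = 4). The fibroblast marker Pdgfra was at 312 ± 34.1 CPM in mono-culture, 107 ± 2.84 with KPC1, 97.1 ± 42.4 with clone V and 322 ± 36.7 in the clone M group (SD, n = 4 each). The 9 fibroblast markers did not move together with KPC1, where the means of Pdgfra, Col1a1, Col1a2, Dcn and Lum were below those of mono-culture and the means of Pdgfrb, Thy1, Vim and Des above them. From mono-culture to KPC1, the mean of Dcn went from 317 to 69.1 CPM, that of Pdgfrb from 576 to 993 CPM and that of Thy1 from 195 to 341 CPM. The summed level of the 9 fibroblast markers, all of which were tested and of which Col1a1 and Col1a2 made up most, ranged from 16130 to 17957 CPM in mono-culture, from 10390 to 13298 CPM with KPC1 and from 14881 to 23421 CPM with clone M. Their part in the fall of Tgfbr2 was not tested.

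Tgfbr1 (chromosome 4, 47353222 to 47414931, plus strand) encodes the type I kinase that phosphorylates the SMAD transducers. It was at 43.2, 38.8, 40.3 and 35.5 CPM in mono-culture, and all 32 co-culture libraries were higher. Clone N libraries were at 88.5, 115, 104 and 95.9 CPM and clone E libraries at 72.6, 89.4, 99.6 and 97.7 CPM. At the other end, clone V libraries were at 44.4, 65.3, 52.5 and 63.1 CPM, the first of them only just above mono-culture. The log2 fold change was 1.35 with clone N (SE 0.131, edgeR adjusted p = 2.11e-09) and 0.51 with clone V (SE 0.130, adjusted p = 0.00112). The lines differed (F-test, adjusted p = 4.36e-06), although the ordered means, clone N (101 ± 11.3 CPM), clone E (89.9 ± 12.3), clone T (79.9 ± 9.35), clone M (71.7 ± 12.04), KPC1 (68.8 ± 6.71), clone K (66.1 ± 8.68), clone H (59.3 ± 6.07) and clone V (56.3 ± 9.70; SD, n = 4 each), overlapped at each step.

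The ratio of the signalling receptors to each other also changed. In RPKM, Tgfbr1 stood to Tgfbr2 as 0.195 ± 0.0365 in mono-culture, between 0.148 and 0.227 in the 4 libraries. With every line the ratio was higher, from 0.467 ± 0.0847 with clone M and 0.491 ± 0.0534 with clone K to 0.980 ± 0.0589 with clone T and 1.08 ± 0.167 with KPC1 (SD, n = 4 each). Clone N had a ratio close to that of clone T, 0.905 ± 0.175 (SD, n = 4), from higher means of both receptors. Tgfbr2 was the most abundant of the 9 genes per length in mono-culture and ranked from 3 (clones E and M) to 7 (KPC1) in the co-cultures.

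Tgfbr3 (betaglycan; chromosome 5, 107106570 to 107289629, minus strand), the co-receptor that presents ligands to the type II receptor, had a pattern of its own. Mono-culture libraries were at 96.4, 91.3, 87.6 and 75.1 CPM. With clone V they were at 31.02, 45.3, 40.3 and 50.6 CPM, with clone H at 60.9, 54.2, 46.6 and 59.9 CPM, and with KPC1 at 61.1, 55.8, 52.3 and 64.3 CPM. These 3 groups lay wholly below mono-culture. Clone M libraries, at 114, 112, 118 and 107 CPM, lay wholly above it. Of the 32 co-culture libraries 16 were below the mono-culture range, 10 above it and the rest within it.

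Tgfbr3 fell by 1.07 on the log2 scale with clone V (SE 0.151, edgeR adjusted p = 5.08e-07), by 0.66 with clone H (adjusted p = 4.20e-04) and by 0.59 with KPC1 (0.00120). With the other 5 lines it was not called. The log2 fold change was 0.36 with clone M (95% interval 0.07 to 0.65, adjusted p = 0.0769), 0.32 with clone N (0.03 to 0.61, 0.0863), 0.25 with clone E (-0.04 to 0.54, 0.208), -0.06 with clone K (-0.35 to 0.23, 0.835) and -0.19 with clone T (-0.48 to 0.10, 0.305). Leaving out clone E replicate 1, at 71.9 CPM beside 124, 113 and 108 CPM, gave a call with clone E (0.40, adjusted p = 0.0350), and leaving out clone N replicate 1 gave one with clone N (0.42, 0.0235). A fit of only the libraries compared called Tgfbr3 higher with clone M (0.38, 0.00318). The 8 lines differed (F-test, edgeR adjusted p = 1.58e-09), with no overlap between clone T (76.9 ± 4.54 CPM) and KPC1 (58.4 ± 5.33 CPM; SD, n = 4 each).

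**Figure D4:**
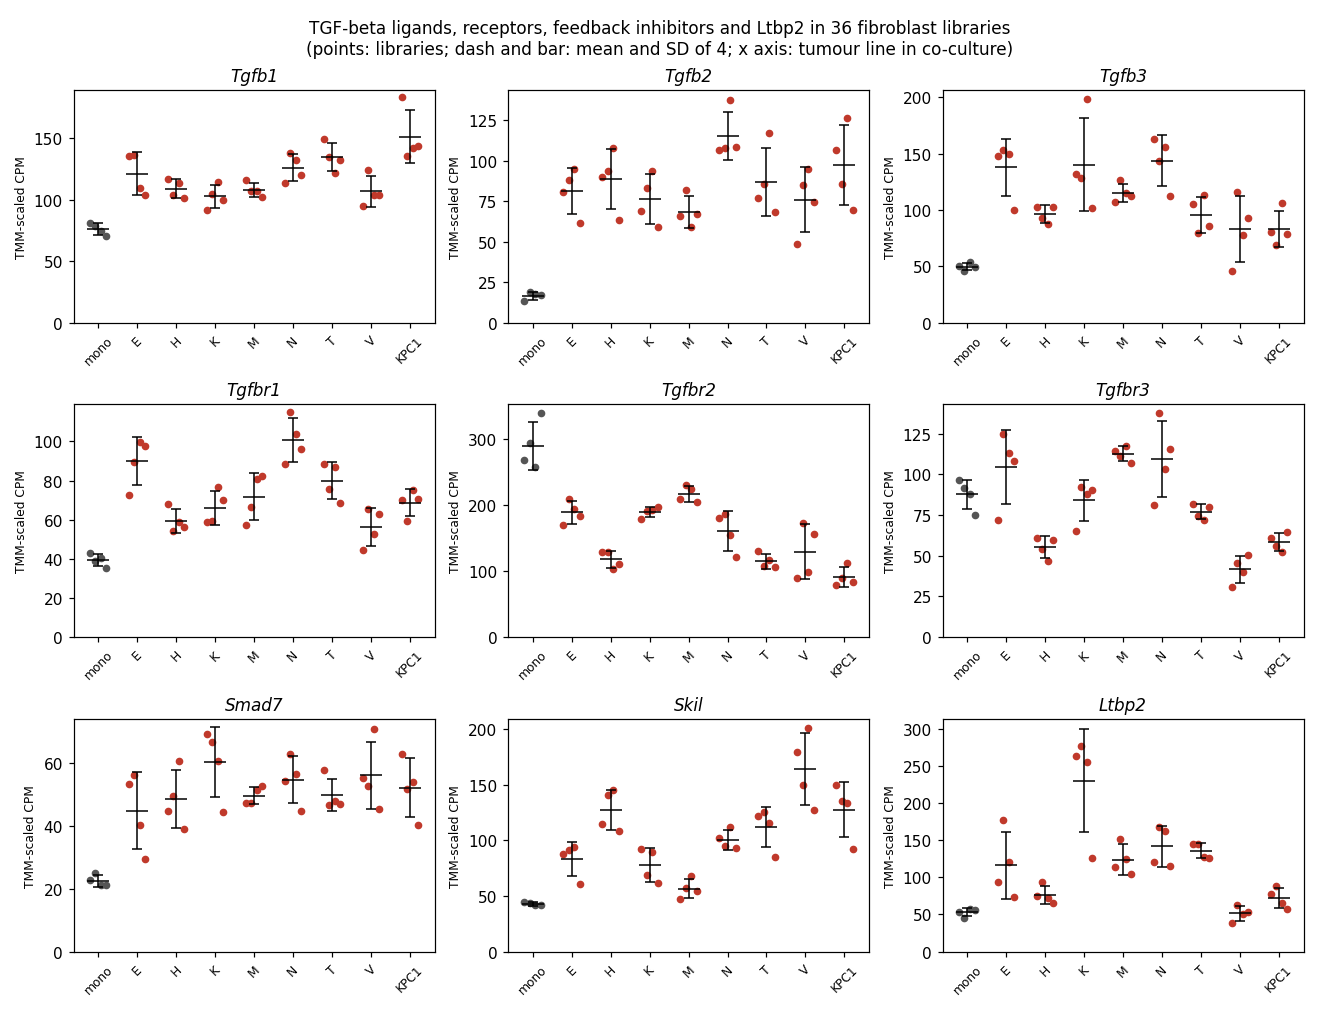
TMM-scaled CPM of the 9 genes in each of 36 libraries (points) by the tumour line in co-culture, with the mean and SD of 4 (dash and bar); axes start at 0. Mono-culture lies apart from all co-culture libraries for Tgfb1, Tgfb2, Tgfbr1, Tgfbr2, Smad7 and Skil, and within the range of some co-cultures for Tgfb3, Tgfbr3 and Ltbp2.

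The feedback inhibitors differed in how far the tumour line mattered. Smad7 competes with the receptor SMADs for the type I receptor and brings ubiquitin ligases to it. It was at 22.8, 25.02, 21.1 and 21.1 CPM in mono-culture, below all 32 co-culture libraries. Clone K libraries were at 69.3, 66.8, 60.8 and 44.4 CPM and clone V libraries at 55.4, 52.8, 70.9 and 45.5 CPM. Clone E had the lowest mean and the lowest single co-culture library, with 53.4, 56.1, 40.3 and 29.5 CPM. Clone M libraries stayed within 47.3 to 52.7 CPM. The log2 fold change lay between 0.997 with clone E (SE 0.171, edgeR adjusted p = 4.25e-05) and 1.42 with clone K (SE 0.171, adjusted p = 4.14e-07). No difference among the 8 lines was called (F-test, edgeR adjusted p = 0.317, unadjusted p = 0.278), and the highest co-culture mean was 1.35 times the lowest.

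Skil (SnoN; chromosome 3, 31095058 to 31122577, plus strand), a co-repressor that binds SMAD complexes on DNA, was at 44.5, 43.8, 41.6 and 41.5 CPM in mono-culture. Again all 32 co-culture libraries were higher, but by very different amounts. Clone V libraries were at 179, 149, 201 and 127 CPM. Those of KPC1 were at 149, 136, 134 and 92.2 CPM, and those of clone H at 115, 141, 145 and 108 CPM. Clone T libraries were at 122, 125, 116 and 85.3 CPM. The lower groups began with clone N, at 103, 94.8, 112 and 92.8 CPM, and clone E, at 87.4, 91.1, 94.2 and 60.8 CPM. Clone K gave 92.2, 68.5, 89.5 and 62.02 CPM, and clone M 47.4, 57.1, 67.9 and 54.7 CPM.

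The increase of Skil was 3.83-fold with clone V (log2 fold change 1.94, SE 0.165, edgeR adjusted p = 6.82e-11), 2.98-fold with KPC1 (adjusted p = 2.47e-09) and 2.97-fold with clone H (4.76e-09). Clone T gave 1.39 on the log2 scale (edgeR adjusted p = 5.02e-08), clone N 1.23 (4.89e-07), clone E 0.96 (3.47e-05) and clone K 0.87 (2.22e-04). With clone M the log2 fold change was 0.41 (95% interval 0.09 to 0.72, adjusted p = 0.0677) and was not called, although its 4 libraries were above the 4 of mono-culture. It was called when clone M replicate 1 was left out (0.49, adjusted p = 0.0437) and when only the libraries compared were fitted (0.43, 0.00575). The lines differed (F-test, edgeR adjusted p = 2.32e-08), and the mean with clone V (164 ± 32.7 CPM) was 2.89 times that with clone M (56.8 ± 8.48 CPM; SD, n = 4 each). The range of clone V overlapped that of KPC1 (128 ± 24.7 CPM; SD, n = 4) and lay above those of clones T, N, E, K and M.

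Skil and Tgfbr3 were near opposite ends of their ranges with the same lines. With clone V, Skil had its highest mean and Tgfbr3 its lowest, and with clone M Skil had its lowest co-culture mean and Tgfbr3 its highest. In RPKM the ratio of Skil to Smad7 was 1.22 ± 0.0691 in mono-culture, 0.727 ± 0.0944 with clone M, 0.832 ± 0.125 with clone K, 1.69 ± 0.128 with clone H and 1.86 ± 0.133 with clone V (SD, n = 4 each). The ratio was thus below mono-culture with some lines and above it with others. These values are a description of the group means, with no test of their relation.

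Ltbp2 (chromosome 12, 84783212 to 84876532, minus strand) encodes a matrix protein that resembles the latent TGF-β binding proteins but is known to bind fibrillin rather than the latency peptide. It was at 54.0, 45.9, 57.6 and 56.6 CPM in mono-culture. Clone K stood out with 263, 277, 255 and 126 CPM, of which replicate 4 was well below the other 3. Clone N libraries were at 121, 168, 162 and 116 CPM. The clone T libraries, at 145, 145, 127 and 126 CPM, and the clone M libraries, at 114, 152, 124 and 105 CPM, lay in the same range. Clone E was spread from 73.2 to 177 CPM. The clone H libraries were at 74.3, 93.4, 72.0 and 65.5 CPM and the KPC1 libraries at 77.5, 87.9, 65.5 and 57.6 CPM. With clone V the libraries were at 38.5, 62.6, 50.9 and 53.6 CPM, on both sides of the mono-culture values.

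Ltbp2 rose 4.30-fold with clone K (log2 fold change 2.11, SE 0.224, edgeR adjusted p = 5.58e-08), and by 1.40 on the log2 scale with clone N (adjusted p = 7.41e-06), 1.35 with clone T (8.91e-06), 1.21 with clone M (1.21e-04) and 1.12 with clone E (2.22e-04). The call with clone H was marginal (0.51, SE 0.217, edgeR adjusted p = 0.0468). It was lost without clone H replicate 1, 2 or 3 (adjusted p 0.0639, 0.149 and 0.0616), without any one mono-culture library (0.0792, 0.118, 0.0582 and 0.0618 without replicates 1 to 4), with RLE size factors (0.0520) and with no scaling beyond library size (0.0818). With KPC1 the log2 fold change was 0.43 (95% interval 0.00 to 0.86, edgeR unadjusted p = 0.0569, adjusted p = 0.0887). It passed the threshold without KPC1 replicate 4 (0.53, 0.0481). With clone V it was -0.06 (95% interval -0.48 to 0.37, adjusted p = 0.843). The 8 lines differed (F-test, edgeR adjusted p = 1.22e-08), and the mean with clone K (230 ± 69.9 CPM) was 4.48 times that with clone V (51.4 ± 9.94 CPM; SD, n = 4 each).

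Ltbp2 and Skil thus ordered the lines differently. Clone V and KPC1 had the highest Skil means and the lowest Ltbp2 means, whereas clone K had the highest Ltbp2 mean and, with clone M, the lowest Skil means. Of the 9 genes, Ltbp2 varied most among the co-culture means, followed by Skil, Tgfbr3 (2.69 times from lowest to highest) and Tgfbr2 (2.39 times). The ligands varied less, by 1.47 times for Tgfb1, 1.68 times for Tgfb2 and 1.73 times for Tgfb3, as did Tgfbr1 (1.79 times), and Smad7 varied least.

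To place the 9 genes among the others, the 2 genes outside the set with the most similar profile over the 9 group means were found for each, by the root mean square difference of centred log2 CPM among 11685 genes. Tgfb1 was most like Irgq (difference 0.07 on the log2 scale) and Ulk3 (0.08), and Tgfb2 most like Pgf, the placental growth factor (0.23), and Slc43a2, an amino acid transporter (0.25). Tgfb3 was closest to Pmepa1, itself an inhibitor of TGF-β signalling (0.15), and A430105I19Rik (0.16). For Tgfbr1 the nearest were Il1r1, the interleukin-1 receptor (0.12), and Lhfp (0.13), and for Tgfbr2 they were Slc27a3 (0.10) and Il17rc, an interleukin-17 receptor subunit (0.12). Tgfbr3 was nearest to Heg1 (0.07) and Polm (0.11). Smad7 lay closest to Enc1 (0.12) and the transcription factor Ets2 (0.13), Skil to Btg3 (0.09) and the angiogenic factor Vegfa (0.12), and Ltbp2 to the mTOR inhibitor Deptor (0.18) and Plcb1 (0.26). Within the set, Tgfb3 and Tgfbr1 were the closest pair (0.24), and Tgfb2 and Tgfbr2 the farthest (1.17). The likeness of a profile is a description of 9 means from the same libraries.

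A wider list of 42 other genes of the pathway was examined by role, and 40 of them were tested (Itgb6 and Comp were too low). This list was also fixed with earlier results of these data known, so its counts are descriptive. With clone N 25 of the 40 were higher and 4 lower, and with clone V 25 and 8, where 19.7% and 19.2%, and 29.4% and 28.9%, of all genes tested were called. The counts were 21 higher and 3 lower with clone E (16.5% and 15.5% of all genes), 23 and 3 with clone H (27.8% and 26.4%), 20 and 1 with clone K (10.4% and 8.69%), 16 and 1 with clone M (12.2% and 10.8%), 18 and 5 with clone T (25% and 24.7%), and 23 and 5 with KPC1 (30.5% and 28.5%). The median log2 fold change of the 40 genes was between 0.38 (clone M) and 0.56 (clone N). Of the 40, 29 were higher with at least 1 line and lower with none, 6 the reverse, 3 were called in both directions and 2, Acvrl1 and Zfyve9, with no line. Among the 8 lines 32 of the 40 differed, a share near the 72.0% of all genes tested that did so.

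**Figure D5:**
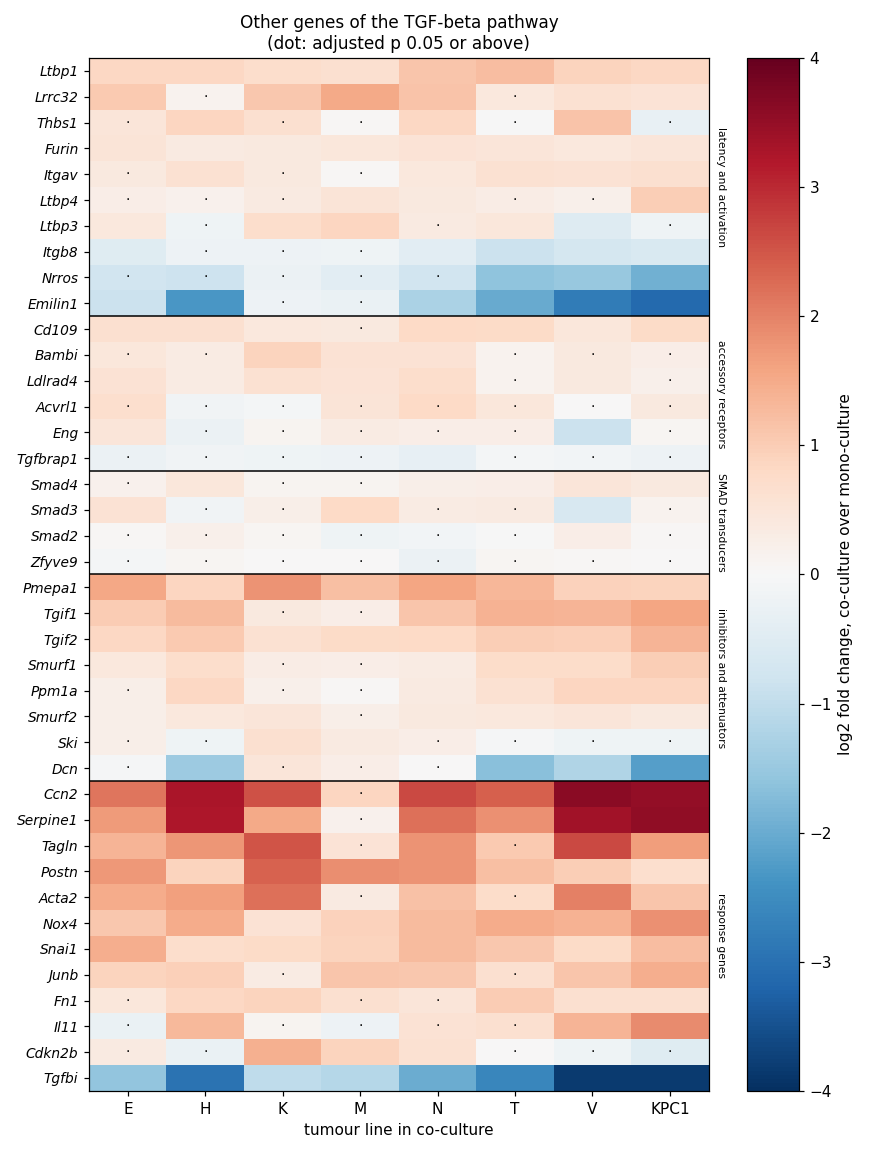
Log2 fold change of each co-culture over mono-culture (colour) for the 40 other pathway genes tested (rows, grouped by role) and 8 tumour lines (columns), with a dot where the edgeR adjusted p was 0.05 or above. Among the response genes Ccn2 is highest, up to 3.60 with clone V, and Tgfbi is below 0 in all 8 columns, from -1.003 to -3.83.

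Response genes formed the role with the highest median log2 fold change with each line, from 0.75 with clone M to 1.34 with KPC1, and 12 of its 13 genes were tested. From 5 (clone M) to 10 (clones H and V and KPC1) of the 12 were higher, and Tgfbi was the 1 lower with each line. Of all genes tested 12.2% were higher with clone M and 27.8% to 30.5% with clones H and V and KPC1. Ccn2, listed in the table under its older symbol Ctgf, encodes a matricellular growth factor and rose from 57.5 ± 21.7 CPM in mono-culture to 696 ± 233 CPM with clone V (SD, n = 4 each; log2 fold change 3.60, edgeR adjusted p = 1.13e-07). It was at 104 ± 19.8 CPM with clone M (SD, n = 4), which was not called (0.85, adjusted p = 0.144). Tgfbi, a matrix protein named for its induction by TGF-β, fell from 41.7 ± 3.30 CPM in mono-culture to 2.94 ± 1.41 CPM with clone V and 2.94 ± 0.949 CPM in the KPC1 group (SD, n = 4 each; log2 fold changes -3.83 and -3.82, edgeR adjusted p = 2.01e-10 and 2.48e-10). Its smallest decrease, with clone K, was to 20.8 ± 5.19 CPM (SD, n = 4; -1.003, adjusted p = 0.0146).

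Among the 8 inhibitors and attenuators, 3 (clone M) to 6 (clones H, N, T and V and KPC1) were higher. Of all genes tested 12.2% were higher with clone M and 19.7% to 30.5% with those 5 lines. Pmepa1, which sequesters receptor SMADs, was higher with all 8 lines, from 38.9 ± 4.47 CPM in mono-culture to 70.1 ± 7.54 with clone H and 137 ± 62.9 with clone K (SD, n = 4 each; log2 fold changes 0.85 to 1.81). The co-repressor Tgif1 was higher with 6 lines, up to 169 ± 35.95 CPM with KPC1 from 57.1 ± 5.03 CPM (SD, n = 4 each; log2 fold change 1.57, edgeR adjusted p = 1.09e-08), and was not called with clones K and M (0.40 and 0.28, adjusted p = 0.104 and 0.264). Dcn, a proteoglycan that binds TGF-β and is also on the list of fibroblast markers, was the only lower gene of this role, with 4 lines.

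For latency and activation, 10 of 11 genes were tested and 4 to 6 were higher with each line, where 10.4% to 30.5% of all genes tested were higher. With clones K and M 0 were lower and with clone V 4, against 8.69%, 10.8% and 28.9% of all genes tested. By the size of their mean change the leading genes of this role were lower ones. Emilin1, a matrix glycoprotein that holds back processing of the TGF-β precursor, went from 188 ± 11.5 CPM in mono-culture down to 21.9 ± 9.58 CPM in the KPC1 group (SD, n = 4 each; log2 fold change -3.10, edgeR adjusted p = 1.12e-09). It was lower with 6 lines and not called with clones K (-0.19, adjusted p = 0.692) and M (-0.27, 0.521). Nrros, which tethers latent TGF-β on myeloid cells, was under 1 CPM throughout and lower with clones T and V and KPC1. Ltbp1 and Furin were higher with all 8 lines, by log2 fold changes of 0.65 to 1.24 and 0.37 to 0.55. Itgb8, of the same role, was lower with 5 lines and higher with 0, at log2 fold changes of -0.86 to -0.16 over the 8. Ltbp1 is the main binding protein of the latent complex and Furin the protease that cleaves the ligand precursor. Ltbp1, Furin and Itgb8 were singled out here after their values were seen.

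Of the 4 SMAD transducers 0 were higher with clone K, 2 with clone V and 1 with each other line. The shares of all genes tested that were higher were 10.4%, 29.4% and 12.2% to 30.5%. Smad4, the shared partner of the receptor SMADs, was higher with 5 lines, at most from 113 ± 3.22 to 159 ± 7.67 CPM with clone V (SD, n = 4 each; log2 fold change 0.49, edgeR adjusted p = 4.39e-07). Smad3 was higher with clones E (0.57, adjusted p = 0.00857) and M (0.78, 7.43e-04) and lower with clone V (-0.63, 0.00191). Of the 6 accessory receptors, Cd109, a membrane protein that binds TGF-β, was higher with 7 lines, at log2 fold changes of 0.41 to 0.79 over the 8, and was not called with clone M (adjusted p = 0.0510). Bambi, a decoy receptor without a kinase, was higher with clones K, M and N (0.90, 0.58 and 0.58) from 5.48 ± 0.831 CPM in mono-culture (SD, n = 4).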

How the data were processed

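For 36 libraries the deposited tables hold raw read counts and RPKM values of each gene, both made by the authors. RPKM followed counts over library totals within 0.99967 to 1.00023, with no further scaling. The library kit was strand specific with poly(A) selection (200 ng RNA, 14 cycles, 76 bp paired ends). The submitters' processing notes name STAR, featureCounts, edgeR and the build mm10, without versions or roles, and strand use in counting is not given in the sources used here. Gene positions are from GENCODE M21.

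Counts were fitted with edgeR 4.0.16 in R 4.3.3 (filterByExpr, TMM, 1 coefficient per group, robust quasi-likelihood), and p-values were Benjamini-Hochberg adjusted over 14439 genes at a threshold of 0.05. Log2 CPM used a prior count of 1. The 95% intervals are normal intervals around the log2 fold change, with an SE derived from the F value of the test. They are narrower than that test implies, and calls rest on its adjusted p-values only. The fit was tested on simulated data, where 78.5% of 200 genes changed 2-fold were recovered for clone V against mono-culture among 14168 genes, with 10 false calls. Alternatives were DESeq2 1.42.0, limma 3.58.1 on log2(RPKM + 1) and log2(RPKM + 0.1), other scalings, no filter, a replicate block, only the libraries compared, and each library left out. No pair of libraries in a group agreed within sampling noise (lowest chi-square per degree of freedom 5.63). The named pathway genes are the 2 per role with the largest mean change, with exceptions said. The members and lists were chosen with earlier results of these data known.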

Additional observations from a re-analysis of the deposited data

Results flagged for a closer look

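In 6 of 81 sets of 4 libraries, 1 set for each member and group, a library stood apart from the other 3 by Dixon's ratio (gap over range) at its 95% critical value for 4 libraries. Chance gives about 1 in 20, or 4.05 sets. KPC1 replicate 1 had 184 CPM of Tgfb1 beside 136 to 144 CPM (ratio 0.831). Clone N replicate 3 had 138 CPM of Tgfb2 beside 107 to 108 CPM (0.956). Clone E replicate 4 had 99.9 CPM of Tgfb3 beside 148 to 153 CPM (0.904). Clone K replicate 1 had 65.4 CPM of Tgfbr3 beside 88.1 to 92.5 CPM (0.839). Clone T replicate 1, the library with the highest epithelial sum, had 57.7 CPM of Smad7 beside 46.8 to 48.0 CPM (0.889). Clone K replicate 4 had 126 CPM of Ltbp2 beside 255 to 277 CPM (0.856).

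The effect of co-culture differed among the 8 tumour lines for 8 members, by an edgeR F-test across the co-cultures, which also called 72.0% of all genes tested. The adjusted p was 1.58e-09 for Tgfbr3, 1.22e-08 for Ltbp2, 2.32e-08 for Skil, 5.91e-08 for Tgfbr2, 4.36e-06 for Tgfbr1, 6.07e-05 for Tgfb1, 0.000516 for Tgfb3 and 0.0292 for Tgfb2.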

How the results depend on the processing

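Of 1512 member values under the alternatives, 1477 kept their direction and their side of the threshold, 26 lost a call, 9 gained one and none reversed. The counts of members called stayed within 1.5 times of the reported ones, as did the counts of genes called. All 26 lost calls were those of Ltbp2 with clone H, Tgfbr2 with clone M and Tgfb2 among the lines. DESeq2 changed no call of a member. For Ltbp2 with clone H, limma on log2(RPKM + 1) and log2(RPKM + 0.1) gave adjusted p of 0.0997 and 0.0859, and no filter gave 0.0655. Without the filter, Tgfb2 among the lines gave 0.0524. With no TMM scaling, the share of higher calls among all genes called fell with each of the 8 lines, from between 50.3% (clone T) and 54.6% (clone K) to between 41.9% (clone N) and 48.8% (clone M). Replicate numbers were not treated as pairs in the main fit. Not every same-numbered pair of libraries correlated over 0.1 in its deviations from the group means, a strict rule that does not settle whether a replicate effect was shared. As a hint from the data, same-numbered co-cultures correlated at a mean of 0.143, with 63 of 112 pairs over 0.1, against -0.0473 and 89 of 336 for different numbers, and 23 of 32 co-culture libraries were nearest to their own number, while the mean was -0.0209 between same-numbered co-cultures and mono-culture. A replicate block left 8 members called with clone E, and it called 8 with clone M and 9 with KPC1, adding Skil with clone M (log2 fold change 0.40, adjusted p = 0.00902) and Ltbp2 with KPC1 (0.39, 0.0453). A fit of only the libraries compared also called Ltbp2 with KPC1 (0.42, 0.0154).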
